A study of Mus musculus with 8 samples.

Results

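Gdf9, Bmp15, Bmp6, Fgf8, Il7 and Kit, which encode 5 factors secreted by the oocyte and the receptor tyrosine kinase Kit, were followed in total and ribosome-bound mRNA of mouse oocytes. The genes were taken by symbol from the deposited tables, and they are 6 of the 10891 genes that the tables hold together. All 6 were in the table of total mRNA (10530 genes). The table of ribosome-bound mRNA (8898 genes) held 5 of them, and Fgf8 was absent from it. In MII oocytes, Gdf9 was among the 6 most abundant genes of every ribosome-bound library, and none of the members passed the threshold between young and old oocytes in the main test.

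The females were RiboTagF/F;Zp3-Cre mice on the C57BL/6 background, young (1 month) or old (12 to 15 months, retired breeders), so that every group carried an HA-tagged ribosomal protein switched on by Cre from the Zp3 promoter in growing oocytes. After 5 IU PMSG and a further 48 h, 10 IU hCG was injected, and MII oocytes were collected 13 h later. Each of the 4 pools (2 young and 2 old, 200 oocytes per pool) gave an input library from 10% of the lysate, which reports total mRNA, and an HA library from the immunoprecipitated ribosomes. Values are CPM, the reads on a gene scaled to the normalized library size, and HA CPM over input CPM of the same pool is called translation efficiency (TE). The libraries held between 37817382 and 60052814 reads on genes, so that 3 reads, the limit that a count of 0 allows, corresponded to at most 0.111 CPM (counting error only, since the reads carry no molecular identifiers). The pools are described as independent samples, but no label ties a pool to named animals, and p-values measure only the spread between these pools. In such bulk libraries, less mRNA in every oocyte of a pool and less mRNA in some of them cannot be told apart.

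The labelled cell type was checked against marker genes. All 10 oocyte markers were in both tables, with a summed level of 6611 to 10550 CPM in HA and 5562 to 6523 CPM in input. Of 16 granulosa and cumulus markers, 10 were in the input table and 4 in the HA table. Their summed level in input was 157 and 317 CPM in old and 198 and 287 CPM in young pools, and in HA it was 144 and 88.8 CPM in old and 199 and 207 CPM in young pools. The granulosa markers Amh, Foxl2, Ptx3, Cyp11a1, Lhcgr and Amhr2 were in neither table, nor were the 3 blood markers. Of 6 oviduct markers, only the epithelial adhesion gene Epcam was in the input table, at 57.6 CPM in old pool 1 and at most 3.29 CPM in the other pools. The part of these cells in the members' values was not tested.

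Gdf9 and Bmp15 belong to the TGF-beta superfamily. They are made by the oocyte as proproteins, are cleaved by convertases such as Furin, and act through type I and type II serine/threonine kinase receptors and SMAD proteins on the surrounding granulosa and cumulus cells, which need them for follicle growth and cumulus expansion. Bmp6 is another BMP of the oocyte, Fgf8 acts with Bmp15 on glycolysis of cumulus cells, and Il7 is a cytokine best known for lymphocyte development. Kit works in the opposite direction: it sits on the oocyte membrane and binds Kit ligand from granulosa cells, with PI3 kinase and Foxo3 downstream during follicle activation and growth.

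Translation of stored mRNA in maturing oocytes depends on the 3' end, where CPEB1 binds cytoplasmic polyadenylation elements (CPEs) near the polyadenylation signal. The title of the study names a CPEB1-dependent disruption of translation. The longest annotated 3' UTR among the coding transcripts of each gene was searched on the transcript strand. The CPE motifs were TTTTAT and TTTTAAT, which can overlap, and the signals AATAAA and ATTAAA were sought in the last 50 bases. CPE motifs were found in 5 of the 6 members: 1 in Gdf9 (3' UTR of 360 bases), 3 in Bmp15 (1523 bases), 2 in Bmp6 (1234 bases), 7 in Il7 (3846 bases) and 3 in Kit (2177 bases). The 192 bases of Fgf8 held none. For comparison, 70.5% of the 8199 genes of the HA table with an annotated 3' UTR held at least 1 such motif anywhere in it. In the last 150 bases, a window of equal length for all genes, 27.8% held a CPE motif, and so did Gdf9, Bmp6 and Kit among the members. The last motif of each member is shown because its distance to the 3' end differs among the members, with the CPE motifs and, for Gdf9, also the polyadenylation signal in capitals (GRCm38, transcript strand, 5' to 3').
Gdf9 (chr11:53437862-53437891, plus strand): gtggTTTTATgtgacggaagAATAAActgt
Bmp15 (chrX:6314619-6314648, minus strand): gctattgactagTTTTATcacattctctct
Bmp6 (chr13:38500212-38500241, plus strand): atttattgtctaTTTTATatccattttgct
Il7 (chr3:7570853-7570882, minus strand): tttttTTTTAATTTTTATtaatgattccgt
Kit (chr5:75656566-75656595, plus strand): cctgaaaatattTTTTATatatacagtaac
The motif starts 39 bases before the annotated end of the transcript in Gdf9, 79 in Bmp6, 145 in Kit, 530 in Bmp15 and 877 in Il7, where motifs of both kinds lie side by side without sharing a base. Gdf9 is the one member in which the motif and the signal AATAAA fall within 30 bases. AATAAA also lay within the last 50 bases of Bmp15, Il7 and Kit, and neither signal was found there in Bmp6 and Fgf8, against 79.6% of genes of the HA table with either signal in that window. These matches describe letters and not sites in use, and the ends used in these oocytes were not measured here. For Il7, the paper reported binding of CPEB1 to the endogenous mRNA in GV oocytes of young mice.

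Gdf9 (ENSMUSG00000018238.6, chr11:53431023-53437904, plus strand) and Bmp15 (ENSMUSG00000023279.7, chrX:6314107-6320721, minus strand) were the most abundant members. In input, Gdf9 was at 3010 and 3264 CPM in old and 3699 and 3691 CPM in young pools, and Bmp15 at 2018 and 2013 CPM in old and 2213 and 2530 CPM in young pools. Gdf9 ranked from 6th to 20th among the genes of the input libraries. Kit (ENSMUSG00000005672.12, chr5:75574916-75656722, plus strand) and Bmp6 (ENSMUSG00000039004.5, chr13:38345107-38500302, plus strand) followed, with 286 to 477 CPM and 171 to 236 CPM in input. Il7 (ENSMUSG00000040329.14, chr3:7569994-7613760, minus strand) was at 43.5 to 70.3 CPM in input. Fgf8 (ENSMUSG00000025219.13, chr19:45736798-45742915, minus strand) was the lowest, at 0.341 to 23.7 CPM. The reads were counted without regard to strand over whole gene bodies, and the 3' end of Bmp6 overlaps Txndc5 on the other strand, so that reads there cannot be assigned by strand.

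Per kilobase of the longest coding transcript, the mean level in input (± SD, n = 4 pools) was 1905 ± 189 CPM per kb for Gdf9, 717 ± 79.4 for Bmp15, 77.5 ± 15.8 for Kit, 56.9 ± 7.49 for Bmp6, 11.6 ± 2.26 for Il7 and 7.24 ± 8.94 for Fgf8. The ranges of Kit (54.7 to 90.9) and Bmp6 (47.6 to 65.6) overlapped, although Kit was above Bmp6 in each of the 4 pools. The ranges of Il7 (8.96 to 14.5) and Fgf8 (0.292 to 20.3) overlapped as well, with Il7 above Fgf8 in 3 of 4 pools. The order of Kit and Bmp6 turned when the length of all merged exons was used (45.6 and 52.4 CPM per kb), and Kit was then below Bmp6 in each pool. In HA the order per kb of coding transcript was Gdf9 (3621 ± 1107), Bmp15 (826 ± 159), Kit (154 ± 116), Bmp6 (25.4 ± 15.5) and Il7 (9.09 ± 3.79), and the ranges of Bmp6 and Il7 overlapped, with Bmp6 above Il7 in 3 of 4 pools. Kit and Bmp6, which overlapped in input, did not overlap in HA, where Kit was at 82.8 to 327 and Bmp6 at 2.54 to 35.5 CPM per kb.

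**Figure D1:**
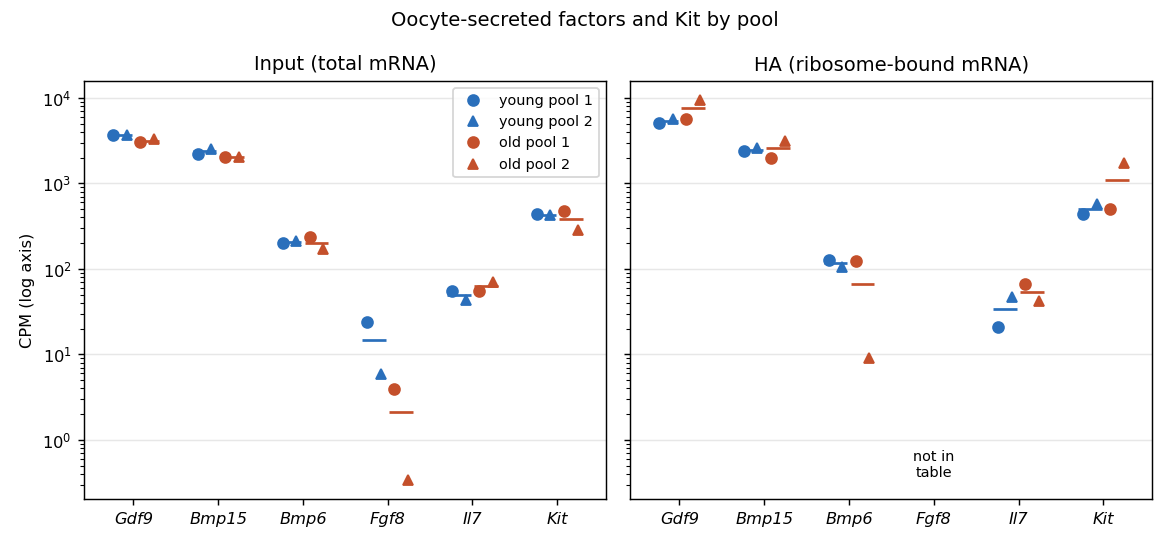
CPM (log axis) of the 6 genes in the input and HA libraries of the 2 young and 2 old pools, with bars at the mean of each age. Gdf9 lies between 3010 and 9442 CPM, Fgf8 is absent from the HA table, and old pool 2 has the lowest Bmp6 (9.13 CPM) and the highest Kit (1714 CPM) of the HA libraries.

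The first comparison asked which members were recovered with ribosomes more or less than their total mRNA would give. Because HA and input were normalized separately, the log2 ratio of a pool was centred on its median over all 8537 genes in both tables. Gdf9 was on the HA side in every pool, with centred log2 ratios of 1.35 and 2.14 in old and 0.88 and 1.05 in young pools. Bmp15 was above the median as well, at 0.42 and 1.26 in old and 0.51 and 0.45 in young pools. Gdf9 had the larger ratio of this pair in each of the 4 pools.

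Kit had centred log2 ratios of 0.50 and 3.18 in old and 0.41 and 0.88 in young pools. Bmp6 had ratios of -0.50 and -3.48 in old and -0.23 and -0.58 in young pools. Gdf9, Bmp15 and Kit were thus above the median of their pool in 4 of 4 pools, as were 15.5% of all genes, and Bmp6 was below it in 4 of 4, as were 12.3% of all genes. Il7 lay on both sides, at 0.67 and -0.11 in old and -0.96 and 0.54 in young pools.

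None of the members passed the threshold of an adjusted p of 0.05 in limma with Benjamini-Hochberg adjustment over all genes, and neither did any other gene (0% of 8537), whereas 1533 genes had an unadjusted p under 0.05. The mean centred log2 ratio of Gdf9 was 1.35 (SE 0.37, limma adjusted p = 0.197), higher than that of 91.8% of genes. For Kit it was 1.24 (SE 0.55, adjusted p = 0.304), for Bmp15 0.66 (SE 0.39, adjusted p = 0.420), for Bmp6 -1.20 (SE 0.71, adjusted p = 0.422) and for Il7 0.04 (SE 0.49, adjusted p = 0.971). The values of Kit and Bmp6 depended on the old pools. Without old pool 2 they were 0.57 for Kit and -0.45 for Bmp6, and without old pool 1 they were 1.91 and -1.94. The call of Gdf9 depended on how limma estimated its variance. With the variance trend taken over the mean level of the genes in place of their mean ratio, an alternative chosen after seeing the data, the adjusted p of Gdf9 was 0.00780 and 3.29% of genes passed with a higher level in HA. Without the pairing of HA and input within a pool, it was 0.0125, and 3.58% of genes passed in that direction. Gdf9 alone of the members passed in either alternative, and the difference between members was not tested.

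**Figure D2:**
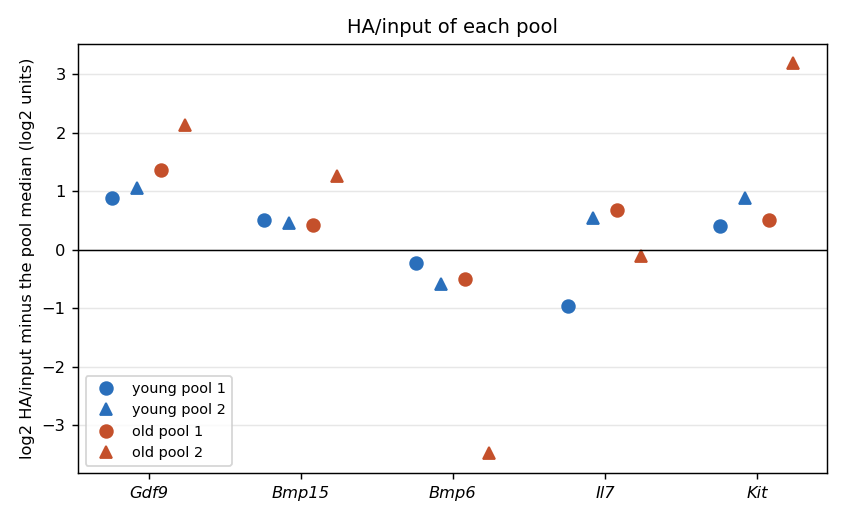
Centred log2 ratio of HA to input (log2 units, 0 is the median gene of the pool) for the 5 genes in both tables, 1 point per pool. Gdf9, Bmp15 and Kit lie above 0 and Bmp6 below 0 in 4 of 4 pools, and old pool 2 holds the most extreme value of Gdf9, Bmp15, Bmp6 and Kit.

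The remaining comparisons asked whether the members differed between old and young oocytes, in total mRNA, in ribosome-bound mRNA and in TE. For 1 gene alone, the smallest two-sided p of an exact permutation test with 2 pools per age is 0.333, so p-values were taken from limma fits across all genes. In HA, 0 of 8898 genes (0%) had an adjusted p under 0.05, and 1311 had an unadjusted p under 0.05. On the recovered reads, the quasi-likelihood test of edgeR called 0 genes, its likelihood ratio test 295 and DESeq2 508, with no member among them. The likelihood ratio test, which the study used, called 38 genes as higher and 257 as lower in old oocytes. The study also reported more mRNAs with decreased than with increased ribosome loading in old oocytes. In input, 1 of 10530 genes (0.0095%) passed in limma, and it was not a member (651 genes with an unadjusted p under 0.05). DESeq2 called 114 genes in input, the likelihood ratio test 50 and the quasi-likelihood test 0, again with no member among them. For TE, 0 of 8537 genes (0%) passed, and 560 had an unadjusted p under 0.05, with 0 calls by the quasi-likelihood test and 91 by the likelihood ratio test.

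Gdf9 in HA was at 5728 and 9442 CPM in old and 5131 and 5671 CPM in young pools, 7585 ± 2626 against 5401 ± 382 CPM (SD, n = 2). Both old pools lay above both young pools, as for 17.2% of all genes in HA, but old pool 1 by less than the difference between the young pools. The log2 difference was 0.45 (SE 0.36, limma adjusted p = 0.698). In input, Gdf9 was at 3137 ± 180 CPM in old and 3695 ± 6.05 CPM in young oocytes (SD, n = 2), with both old pools below both young pools, as for 18.9% of genes (log2 difference -0.24, SE 0.20, limma adjusted p = 0.899). The TE of Gdf9 was 1.90 and 2.89 in old and 1.39 and 1.54 in young pools. The old pools were again the higher ones, as for 17.2% of genes in TE, with a log2 difference of 0.68 (SE 0.70, limma adjusted p = 0.866). Old pool 2 carried much of these differences: without it they were 0.09 in HA and 0.38 in TE, and without old pool 1 they were 0.81 in HA and 0.99 in TE.

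The direction of Gdf9 in HA turned with the scaling of the libraries. As a share of all reads on the genes of a library, Gdf9 made up 0.514% and 0.676% in old and 0.665% and 0.682% in young HA libraries, and the groups overlapped. With libraries rescaled to the same sum, its HA log2 difference was -0.19 (SE 0.23, limma adjusted p = 0.782), while the median of all genes moved from -0.14 to -0.68. Relative to the other genes, Gdf9 kept a similar position, with a log2 difference above that of 68.1% of genes on the deposited scale and of 65.3% after rescaling. After quantile normalization its old and young means were equal, since it held the same ranks, and it was above 51.7% of genes.

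Bmp15 in HA was at 2009 and 3168 CPM in old and 2363 and 2570 CPM in young pools, with the young pools between the old ones (log2 difference 0.03, SE 0.36, limma adjusted p = 0.989). As a share of library reads it was at 0.180% and 0.227% in old and 0.306% and 0.309% in young HA libraries. On that scale both old libraries were below both young ones, as for 35.7% of genes, and the rescaled log2 difference was -0.61 (SE 0.25, limma adjusted p = 0.321). In input, Bmp15 was at 2015 ± 3.15 CPM in old and 2372 ± 224 CPM in young oocytes (SD, n = 2, log2 difference -0.23, SE 0.21, limma adjusted p = 0.906), and both old pools were below both young pools, as for 18.9% of genes. Its TE was 0.996 and 1.57 in old and 1.07 and 1.02 in young pools, and the groups overlapped (log2 difference 0.27, SE 0.74, limma adjusted p = 0.957).

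A ratio of both genes within a library does not depend on the scaling. The ratio of Gdf9 to Bmp15 in HA was 2.85 and 2.98 in old and 2.17 and 2.21 in young pools. The old values were the higher ones in HA, as they were for 16.6% of genes when each was divided by Bmp15. In input the ratio was 1.49 and 1.62 in old and 1.67 and 1.46 in young pools, and the groups overlapped. The ratio was thus higher in HA than in input in 4 of 4 pools. This ratio was chosen after its values were seen and has no test.

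**Figure D3:**
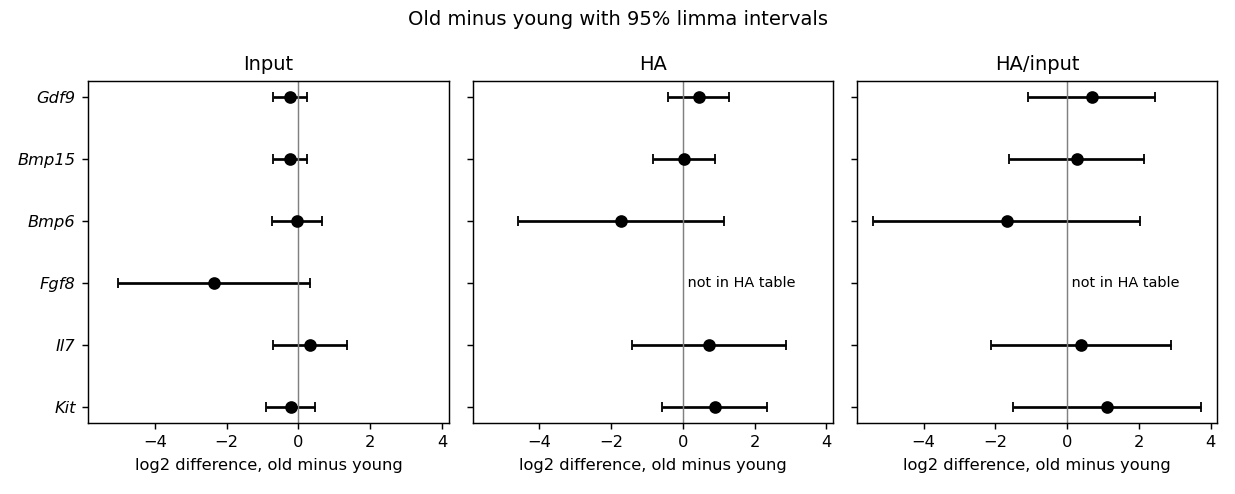
Log2 difference, old minus young, of the members in input, HA and HA/input, with 95% limma intervals (2 pools per age). Every interval covers 0, and the interval of Fgf8 in input reaches from -5.02 to 0.33.

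Kit in HA was at 503 and 1714 CPM in old and 434 and 581 CPM in young pools. Old pool 1 lay between the young pools, and old pool 2 was at 3.41 times old pool 1. In input, Kit was at 477 and 286 CPM in old and 436 and 425 CPM in young pools, so that old pool 2 held the lowest input and the highest HA value. The TE of Kit was 1.06 and 5.98 in old and 0.996 and 1.37 in young pools. The log2 difference was 0.88 in HA (SE 0.61, limma adjusted p = 0.626), -0.22 in input (SE 0.30, adjusted p = 0.948) and 1.10 in TE (SE 1.03, adjusted p = 0.858). The HA difference of Kit was 0.25 after rescaling to the same sum and 0.22 after quantile normalization. Divided by Bmp15 of the same library, Kit in HA was higher in both old pools, as for 16.6% of genes.

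Bmp6 moved the other way in the same pool. In HA it was at 124 and 9.13 CPM in old and 128 and 105 CPM in young pools, where 9.13 CPM stood for 247 reads, far above 3 reads. In input it was at 236 and 171 CPM in old and 199 and 212 CPM in young pools, and the groups overlapped. The TE of Bmp6 was 0.526 and 0.0534 in old and 0.639 and 0.496 in young pools. The log2 difference was -1.71 in HA (SE 1.20, limma adjusted p = 0.636), -0.03 in input (SE 0.30, adjusted p = 0.991) and -1.68 in TE (SE 1.47, adjusted p = 0.849).

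On the deposited scale, the differences of Kit and Bmp6 in HA rested on old pool 2. Without it, the log2 difference in HA was 0.0018 for Kit and 0.10 for Bmp6, and in TE -0.15 for Kit and -0.10 for Bmp6. Without old pool 1, with the spread of the lone old pool assumed to be that of the young pools, the HA difference was 1.77 for Kit (limma adjusted p = 0.0400) and -3.53 for Bmp6 (limma adjusted p = 0.0237). In that fit 2.92% of genes passed as higher and 1.49% as lower in old oocytes, 393 of 8898 in all. Old pool 2 was also the pool with the widest HA/input ratios over all genes (SD of the log2 ratio 2.24, against 1.96 in old pool 1, 1.06 in young pool 1 and 1.39 in young pool 2). Across genes, Spearman's rho was 0.692 between the old HA libraries and 0.837 between the young HA libraries. The centred log2 ratio of Kit in old pool 2 exceeded its median in the other pools by 2.68, more than for 91.5% of genes, and that of Bmp6 fell short by a difference of -2.98, with 10.9% of genes lower still.

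Il7 in HA was at 65.8 and 42.6 CPM in old and 21.0 and 47.1 CPM in young pools, and in input at 55.4 and 70.3 CPM in old and 55.8 and 43.5 CPM in young pools. The groups overlapped in both fractions and in TE (1.19 and 0.606 in old, 0.377 and 1.08 in young pools). The log2 difference was 0.73 in HA (SE 0.90, limma adjusted p = 0.826), 0.33 in input (SE 0.45, adjusted p = 0.946) and 0.39 in TE (SE 0.99, adjusted p = 0.953). The paper also detected no change of Il7 translation in its RNA-Seq. With other assays, it reported lower translation of an Il7 3' UTR reporter and a lower oligo(dT) signal of Il7 in old oocytes.

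Fgf8, measured in input only, was at 3.90 and 0.341 CPM in old and 23.7 and 5.83 CPM in young pools, which stood for 212, 17, 1636 and 222 reads. Both old pools lay below both young pools, as for 18.9% of genes in input, with means of 2.12 ± 2.51 and 14.8 ± 12.7 CPM (SD, n = 2). The log2 difference was -2.34 (SE 1.17, limma adjusted p = 0.781), and 1.89% of genes had a lower one. It was -1.41 without old pool 2 and -3.28 without old pool 1, and without young pool 1 it was -1.42, with 10.4% of genes lower. With a pseudocount of 5 CPM it was -1.36. The pools of 1 age differed by 11.4 times in old and by 4.07 times in young oocytes. Of the 10 granulosa and cumulus markers in the input table, Cyp19a1, Fshr and Inhba were lower in both old pools than in both young pools. So were Fgf8 and 18.9% of genes in input. Nr5a2 and Has2 were higher in both old pools, for which the share of all genes was not counted. The other 5 overlapped, as did the sum of all 10 (157 and 317 CPM in old, 198 and 287 CPM in young pools). Cyp19a1, the aromatase of granulosa cells, was at 13.5 and 37.4 CPM in old and 47.5 and 56.1 CPM in young input libraries. Inhba was at 0.0184 and 5.62 CPM in old and 6.1 and 48.1 CPM in young input libraries. Both markers were highest in young pool 2, whereas Fgf8 was highest in young pool 1. The part of these cells in the Fgf8 values was not tested.

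**Figure D4:**
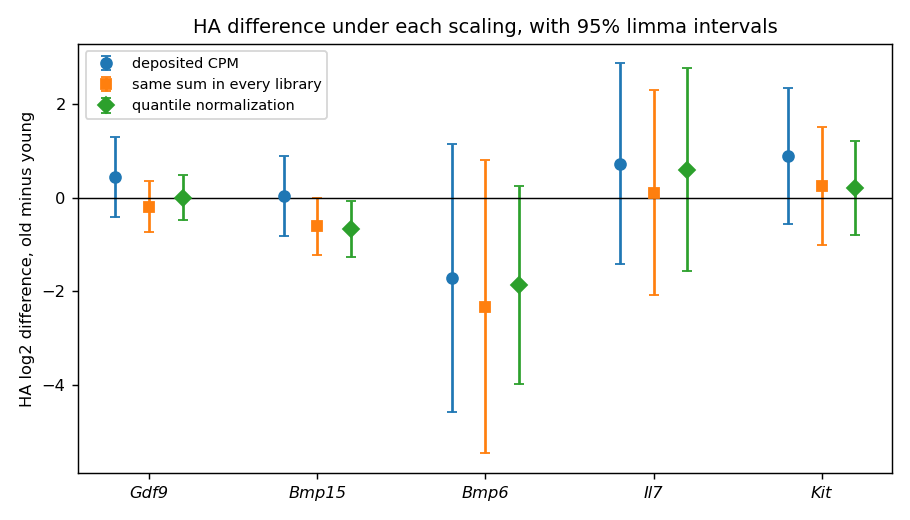
HA log2 difference, old minus young, on the deposited CPM, after rescaling every library to 1 sum, and after quantile normalization, with 95% limma intervals. Gdf9 goes from 0.45 to -0.19 and Bmp15 from 0.03 to -0.61 on rescaling, Bmp6 stays below 0 and Kit and Il7 stay above 0 under these 3 scalings.

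The pathways around the members were followed in gene lists, and in limma none of their genes passed the threshold in HA, input or TE between ages. Between HA and input none passed in the main fit, and Fgfr2 and Foxo3 passed with the variance trend over the mean level. Of 17 TGF-beta superfamily receptors, 9 were in the input table and 9 in the HA table. Bmpr2, the type II receptor that binds Gdf9 and Bmp15, was the highest of them in input at 384 to 721 CPM, and was at 93.0 to 469 CPM in HA. Bmpr1b, a type I receptor, was at 315 to 485 CPM in input and 351 to 596 CPM in HA. The type I receptors Bmpr1a (42.3 to 193 CPM in input) and Tgfbr1 (22.4 to 31.6 CPM in input) were lower.

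Of 17 SMADs and SMAD regulators, 12 were in the input table, led by the SMAD corepressor Ski at 674 to 976 CPM, and the common SMAD, Smad4, was at 68.4 to 102 CPM. Of 8 proprotein convertases, 5 were in the input table. Furin, which led them, was at 190 and 120 CPM in old and 145 and 158 CPM in young input libraries, and at 114 and 14.4 CPM in old and 33.0 and 17.6 CPM in young HA libraries. Of 12 BMP and activin antagonists, 3 were in the input table, the highest on average being the BMP antagonist Grem1 at 0 to 14.4 CPM. The other TGF-beta superfamily ligands were present as 7 of 21 in input and 4 of 21 in HA.

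Of 25 FGF ligands, receptors and feedback genes, 11 were in the input table and 10 in the HA table. Spry4, a feedback inhibitor of receptor tyrosine kinases, was the highest in input, at 1215 to 1420 CPM. In HA it was at 1677 and 1638 CPM in old and 635 and 461 CPM in young pools, and both old pools were above both young pools, as for 17.2% of genes. Its log2 difference was 1.61 (SE 0.36, limma adjusted p = 0.297), and 0.97 after rescaling to the same sum. Fgfr2, the FGF receptor with the higher level, was at 125 to 182 CPM in input and at 525 to 1142 CPM in HA, with HA above input in 4 of 4 pools. Its centred log2 ratio was 2.61 (SE 0.45, limma adjusted p = 0.191), with an adjusted p of 0.00591 with the variance trend over the mean level. Fgfr1 was at 6.80 to 37.1 CPM in input.

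For Il7, the receptor genes Il7r and Il2rg were in neither table. Of 13 IL7 receptor and JAK-STAT genes, 4 were in the input table, led by the kinase Jak1 at 177 to 244 CPM. Kit ligand, Kitl, was at 0.0145 to 5.65 CPM in input and absent from the HA table. Of 22 genes of Kit ligand and Kit signalling, 19 were in the input table and 13 in the HA table. The transcription factor Foxo3 led them at 1057 to 1227 CPM in input, and in HA it was at 2357 and 2605 CPM in old and 1427 and 1067 CPM in young pools. Its HA log2 difference was 1.00 (SE 0.34, limma adjusted p = 0.297), and 0.36 after rescaling.

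The genes whose log2(CPM + 1) followed each member most closely over the 8 libraries were sought among 5305 genes with a mean of at least 10 CPM in each table. For Gdf9 they were Ddx5 (Pearson's r = 0.991) and Nlrp9a (r = 0.988), for Bmp15 Acsl3 (r = 0.948) and Cdc37l1 (r = 0.946), and for Kit Mynn (r = 0.984) and Nlrp9c (r = 0.980). For Bmp6 they were 1810055G02Rik (r = 0.990) and Ttc27 (r = 0.990), and for Il7 Ccny (r = 0.964) and Ddx24 (r = 0.953). Among the members, Kit and Gdf9 had r = 0.848, Gdf9 and Bmp15 r = 0.741, and Kit and Bmp6 r = -0.927. The 8 libraries fall into HA and input and share pools and scaling, so these values are a description with no test.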

How the data were processed

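The deposited signal values are CPM, which the authors made from single-end RNA-Seq reads of NuGEN Ovation V2 libraries by trimming (Trimmomatic 0.36), alignment to GRCm38 (HISAT2), counting per gene over whole gene bodies without strand (HTSeq), filtering of low genes and TMM scaling (edgeR), separately for HA and input. The Methods state a minimum of 10 CPM in 2 libraries. The deposited genes all reach 1 CPM in 2 libraries only when reads are divided by the library's own read total, and 172 genes in HA and 50 in input do not on the deposited TMM scale. Values were whole multiples of 1 read within 0.001 reads (100% of values in each library), so reads were recovered for the count tests. All columns were used.

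Members and gene lists were chosen with earlier results of these data known. The members, the highest list gene in input, the listed direct partners and the genes most like each member were named by rule. Old and young were compared with limma (lmFit and eBayes with trend, two-sided, Benjamini-Hochberg over all genes) on log2(CPM + 1), which understates changes of low genes, and TE on the log2 ratio per pool. HA against input was tested on the mean of the centred log2 ratios, paired because each input came from the same lysate. The replicate numbers of old and young pools were not used as pairs. The tests were tested on simulated data. Alternatives were pseudocounts of 0.1 and 5 CPM, a mean of at least 10 CPM, other scalings, tests on recovered reads, a replicate block and leaving out each pool. Transcripts, 3' UTRs and coordinates are from GENCODE M21 on GRCm38, whose identifiers matched 99.9% of the genes (GENCODE M11 was used upstream). Versions were Python 3.11.15 with pandas 2.3.3, matplotlib 3.10.9 and numpy 2.4.6, and DESeq2 1.42.0, edgeR 4.0.16 and limma 3.58.1 in R 4.3.3.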

Additional observations from a re-analysis of the deposited data

How the results depend on the processing

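With 2 pools per age, single genes carry wide intervals, and counts of calls varied with the tool. In HA between ages, DESeq2 called 508 genes, the likelihood ratio test 295, the replicate block 9, and leaving out 1 pool gave 0 to 634 (634 without young pool 2, 393 without old pool 1, 3 without old pool 2), against 0 in the main fit. In input the counts were 114, 50 and, by the quasi-likelihood test, 0, with 0 to 2 on leaving out a pool, against 1. For TE the likelihood ratio test called 91. HA against input gave 302 genes with the variance trend over the mean level (added after seeing the data) and 335 with no replicate block. The deviations of pools with the same number correlated at 0.079 in HA, 0.027 in input and 0.011 in TE across genes. These values cannot decide whether pools with the same number were handled together, and the labels do not say. The causes were not tested.

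Of 317 values for the members, Spry4, Foxo3 and Fgfr2 under alternatives, 287 kept direction and side of the threshold, 8 passed it and 22 turned direction. Rescaling to the same sum moved the median of all genes from -0.14 to -0.68 in HA, from -0.026 to -0.19 in input and from -0.10 to -0.48 in TE. It turned Gdf9 in HA (-0.19), Bmp15 in HA (-0.61) and TE (-0.19) and Il7 in TE (-0.042). Quantile normalization turned Bmp15 in HA (-0.67) and TE (-0.32), and DESeq2 turned Bmp6 in input (0.0039). For Il7, HA against input turned with a mean of at least 10 CPM (-0.17), without centring (-0.43) and with a pseudocount of 5 CPM (-0.061). On leaving out 1 pool, the ranges that crossed 0 were, in HA, -0.29 to 0.36 for Bmp15 and -3.53 to 0.10 for Bmp6. In input they were -0.26 to 0.20 for Bmp6 and -0.59 to 0.15 for Kit. In TE they were -0.065 to 0.60 for Bmp15, -0.35 to 1.13 for Il7 and -0.15 to 2.35 for Kit, and for HA against input -0.34 to 0.41 for Il7. The HA range of Il7 was 0.16 to 1.29. Foxo3 in HA against input passed with the variance trend over the mean level (adjusted p = 0.0257) and with no replicate block (adjusted p = 0.0426), at a centred log2 ratio of 1.07.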

Other observations

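Other secreted growth factors of the TGF-beta and FGF families were present in these oocytes beside the members, and were chosen after their values were seen. Tgfb2, which encodes a TGF-beta ligand, was at 340 to 431 CPM in input and at 286 and 143 CPM in old and 274 and 273 CPM in young HA libraries. Its input level thus lay in the range of Kit and above that of Bmp6, in CPM without regard to length. Bmp5 was at 34.9 to 90.7 CPM in input, with 89.1 and 4.10 CPM in old and 12.2 and 5.27 CPM in young HA libraries, and old pool 1 was the high one. Bmp7 was at 3.54 to 16.8 CPM in input, with 3.16 and 140 CPM in old and 4.91 and 1.76 CPM in young HA libraries, and here old pool 2 was the high one. Fgf9 was at 24.4 to 76.2 CPM in input and 32.2 to 89.2 CPM in HA, so that a different FGF ligand than Fgf8 was measured in both fractions. No adjusted p of these genes in limma was under 0.05 between ages.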
